A study of Mus musculus with 8 samples.

Results

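The mRNA response to the chemokine Cxcl12 was measured in Ba/F3 cells expressing FLT3/ITD. Ba/F3 is a mouse pro-B cell line whose growth depends on IL3, and FLT3/ITD is the receptor tyrosine kinase FLT3 with an internal tandem duplication, a lesion of acute myeloid leukaemia. The 4 arrays described are all those of FLT3/ITD cells among the 8 of the series, and they were chosen by their labels alone. The other 4 were of Ba/F3 cells expressing wild type FLT3, treated in the same way. All cells were maintained in RPMI1640 with 10% serum and 0.1 ng/ml IL3, washed, and kept for 4 h in RPMI1640 with 0.5% bovine serum albumin, without or with 100 ng/ml recombinant murine Cxcl12. The labels name no IL3 for these 4 h. There was 1 array without and 1 with Cxcl12 for each of 2 duplications, N51 and N78. The labels do not say whether a cell line is 1 clone or a pool, nor whether arrays of a group came from separate cultures, so p-values measure only the spread between these arrays.

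Both N51 arrays lay on one slide and both N78 arrays on another, so the duplication and the slide cannot be told apart. On each slide the array without Cxcl12 was at position 2 and the array with Cxcl12 at position 4, so Cxcl12 and position cannot be told apart either. The share of probes brighter than background was 49.0% to 53.3% over the 4 arrays. Of 15 pro-B cell markers, Cd79a, Cd79b, Dntt, Ptprc and Vpreb1 were well above background on all 4. The probes of Cd24a, Ebf1, Igll1, Il7r, Lef1, Pax5, Rag1 and Rag2 were not above it on any, so the pro-B cell label rests on only some of its defining genes.

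Cxcl12 binds Cxcr4, a receptor coupled to Gi proteins. Its activation lowers cyclic AMP and switches on phosphoinositide 3-kinase, the MAP kinases and GTPases that rebuild the actin cytoskeleton, and in bone marrow it retains haematopoietic progenitors and precursor B cells. FLT3/ITD signals without ligand, through STAT5, the MAP kinases and AKT. The comparison asks which mRNAs differ when cells with an active FLT3 meet Cxcl12. Throughout, a level is the log2 signal of a probe relative to the 75th percentile of its array, and a difference is the level with Cxcl12 minus the level without it. The fitted difference is the mean of the N51 and N78 differences, given with its standard error (SE) from the limma fit over all 8 arrays.

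With Cxcl12, FLT3/ITD cells had more mRNA of Dusp2, Myc, Id1, the actins Acta1 and Actc1 and the calponin Cnn2 in both pairs, and more of nearly every measured gene of cholesterol synthesis. They had less of Ier3, Jun, Ddit4, Slc2a3 and Nupr1 and of the eosinophil granule genes Prg2, Prg3 and Epx. None of these differences passed the test over all genes. Of 13849 genes and unnamed transcripts tested with limma, 0 (0%) had an adjusted p under 0.05, and the smallest was 0.128, for Dusp2. At an unadjusted p under 0.05 there were 1446 (10.4%), 890 higher and 556 lower. Background correction with normexp in place of the scanner software's called 28 genes, 17 higher and 11 lower. Some of the 17 differed mainly in 1 pair, such as Derl2 (8.27 in N51 and 0.52 in N78) and Tsc1 (-0.27 and 6.71). Others, such as Dusp2, differed in both. The words higher and lower are therefore used here for values, and not for calls.

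The N51 pair differed more widely than the N78 pair. Over all genes the interquartile range of the difference was 0.72 in N51 and 0.41 in N78, and 11.04% and 3.43% of genes differed by more than 2-fold. The wild type pairs had interquartile ranges of 0.44 and 0.57. The N51 and N78 differences correlated at 0.308 across 13825 genes and had the same sign in 59.2%. Genes are not independent replicates, so this has no p. A gene counts as 2-fold different below where it differed by at least 2-fold the same way in both pairs and where each array of the higher group read clearly over background. By that rule 68 genes (0.491%) were higher and 81 (0.585%) lower with Cxcl12, and scaling each array to its median in place of the 75th percentile turned that split to 50 higher and 115 lower. Of the 68, 19 were not above background on either array without Cxcl12, and of the 81, 27 were not above it on either array with Cxcl12.

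**Figure D1:**
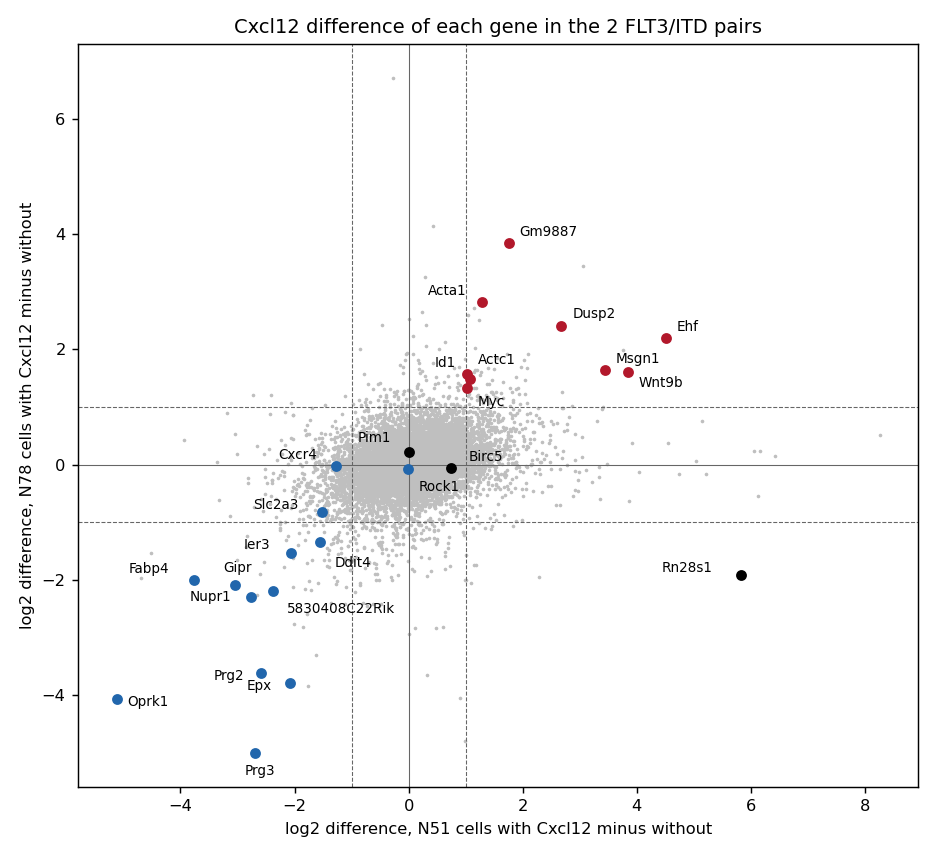
Log2 difference with Cxcl12 minus without for each of the tested genes, in N51 cells (x axis) and N78 cells (y axis). Grey points are genes, labelled points are genes named in the text (red, higher in both pairs; blue, lower in both; black, opposite signs), and dashed lines mark 2-fold; Dusp2 lies at 2.68 and 2.41 and Oprk1 at -5.12 and -4.06, while Cxcr4 lies at -1.27 and -0.03.

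Dusp2, a nuclear phosphatase that switches off ERK and other MAP kinases, had levels of 0.17 in N51 and -0.24 in N78 cells without Cxcl12, and 2.85 and 2.17 with it. The groups did not overlap. The differences were 6.4-fold and 5.32-fold, and the fitted one was 2.54 (SE 0.28, adjusted p = 0.128). A different Dusp2 probe gave 2.22 and 2.03. The probe used lies on chromosome 2 from 127163930 to 127163989 (plus strand, mm9). The adjusted p of Dusp2 ranged from 1.6e-06 with normexp to 1 over 19 settings, and it was under 0.05 in 7 of them, so its call rests on the setting.

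The other genes that led the higher group were mostly dim. A probe was tested where it was clearly over background on each array of 1 group or more. The probes of Ehf, Wnt9b, Gm9887, Zcchc24, 2210016F16Rik and AU018823 passed this filter only through the FLT3/ITD group with Cxcl12. Their place among the higher genes is therefore partly set by the filter. Ehf, an ETS transcription factor of epithelia, had -7.55 and -5.75 without Cxcl12, below background on both arrays, and -3.04 and -3.56 with it, at least 7.88-fold higher (adjusted p = 0.297). Such a bound sets the brighter group against, on each dim array, the higher of the probe's own reading and the lowest signal found above background. For Msgn1, Zcchc24, Flicr, 2210016F16Rik, Tyw3 and Oas2, given below, the probe's own reading set it, so that their bound equals the ratio of the measured means. By the same rule Wnt9b, a Wnt ligand, was at least 6.17-fold higher (adjusted p = 0.297). Msgn1, a mesoderm transcription factor, was at least 5.80-fold higher (adjusted p = 0.382), and Gm9887, a predicted gene, at least 4.91-fold (adjusted p = 0.297). The remaining bounds ran from 2.92-fold for Zcchc24, through 3.37-fold for Flicr and 3.66-fold for 2210016F16Rik, to 3.78-fold for Tyw3, a tRNA wybutosine synthesis gene. A630031M23Rik had a fitted 1.46 and AU018823 2.01, with 3 of 4 arrays above background for each. The lipoprotein and reelin receptor Lrp8, above background on all 4 arrays, went from -0.30 to 1.08 in N51 and from -2.40 to -1.0 in N78 (1.39, SE 0.24, adjusted p = 0.245). Its further probes gave 1.04 and 0.02, and 0.91 and -0.02, so the N78 difference of Lrp8 was not the same in each probe.

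Oprk1, the kappa opioid receptor, another Gi-coupled receptor, led the lower group. Its levels were -2.32 in N51 and -2.45 in N78 without Cxcl12, and below background at -7.44 and -6.52 with it. It was at least 9.76-fold lower (adjusted p = 0.227; probe on chromosome 1, 5592825 to 5592884, mm9). Wild type FLT3 cells had Oprk1 below background on all 4 arrays. The uncharacterised gene 5830408C22Rik went from 0.14 to -2.25 in N51 and from 0.80 to -1.39 in N78, with no overlap (-2.29, SE 0.35, adjusted p = 0.245). It was also lower in wild type cells, by 2.02 and 3.61, where it passed the test. Gipr, the receptor for the gut hormone GIP, went from -0.33 to -3.38 and from -1.35 to -3.43 (-2.57, SE 0.57, adjusted p = 0.297), with -2.28 and -0.62 in a further probe, and passed the test in wild type cells too. Tnnc1, a calcium-binding troponin, had a fitted -2.07 (SE 0.33, adjusted p = 0.245), with 1 of the 2 Cxcl12 arrays above background. Fabp4, a fatty acid carrier, was at least 3.07-fold lower (adjusted p = 0.3), Fxyd4, a regulator of the sodium pump, at least 3.77-fold (adjusted p = 0.347) and Mpv17l at least 2.85-fold (adjusted p = 0.292). The probes of Oprk1, Fabp4 and Mpv17l passed the filter only through the FLT3/ITD group without Cxcl12, so their place here is partly set by it.

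**Figure D2:**
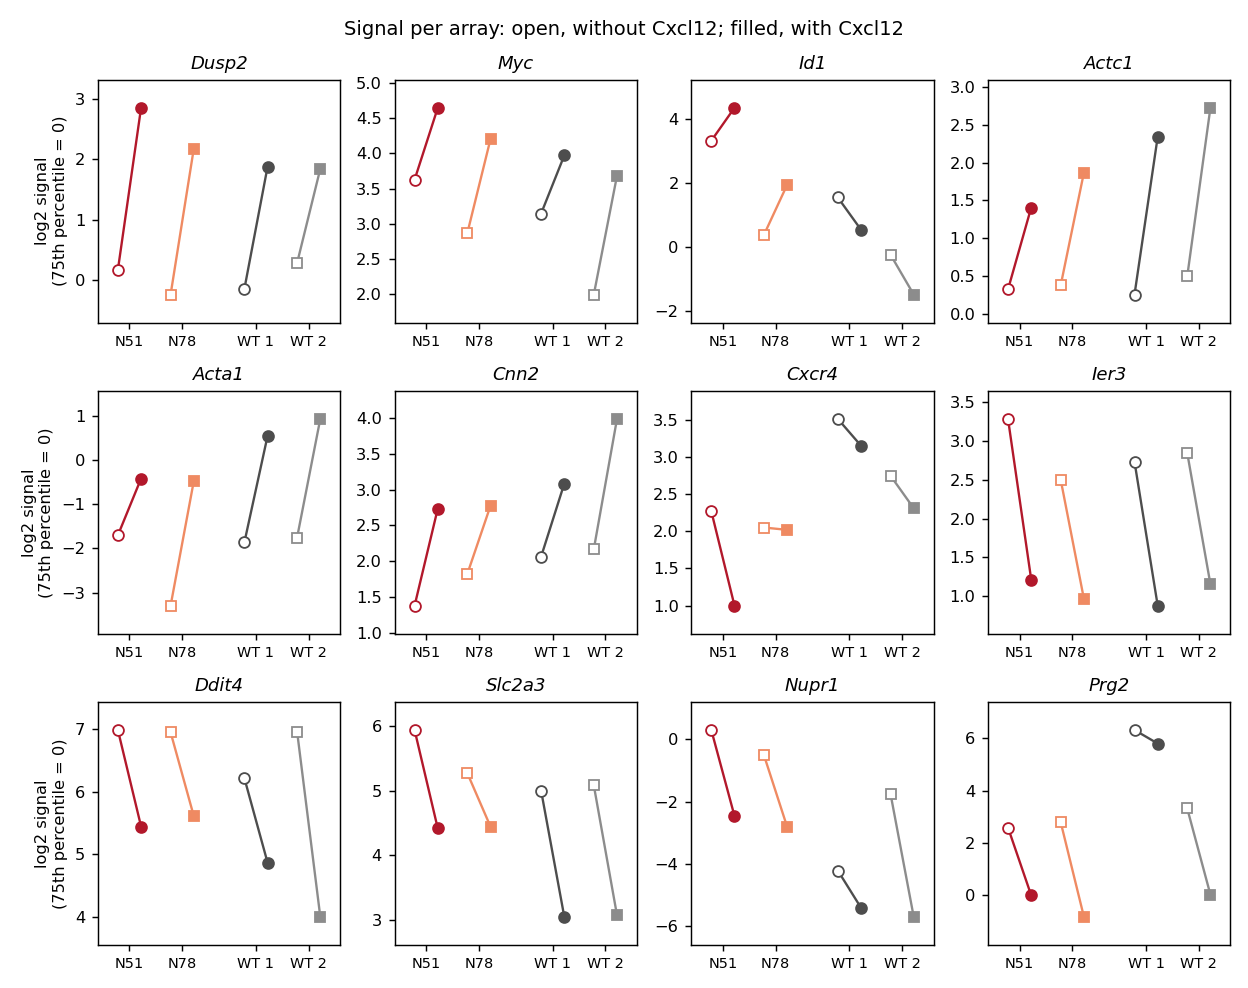
Level of 12 genes on each array (y axis, log2 signal with the array's 75th percentile at 0), for N51, N78 and the wild type cells of slides 1 and 2 (x axis). Open symbols are without and filled with Cxcl12, and lines join the arrays of 1 pair; Dusp2, Myc, Actc1, Acta1 and Cnn2 are higher in all 4 pairs, Ier3, Ddit4, Slc2a3, Nupr1 and Prg2 lower in all 4, and Id1 goes up in the FLT3/ITD pairs and down in the wild type pairs.

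Genes of MAP kinase feedback shut the pathway off after it has fired. Of 13 measured (of 16 listed) 7 were higher in both pairs, 2 lower and 4 split, with a median of 0.52, where over all genes 32.7% were higher and 26.3% lower in both pairs and the median was 0.04. Over 5 scalings 6 or 7 were higher. Beside Dusp2, the ERK phosphatase Dusp4 went from 2.65 to 3.91 in N51 and from 0.52 to 1.43 in N78 (1.08, SE 0.37, adjusted p = 0.385), and a further probe gave 0.43 and 0.33. Dusp6, a cytoplasmic ERK phosphatase, had differences of 0.52 and 0.98. Dusp10, which acts on JNK and p38, lay the other way, from -0.80 to -1.86 and from -2.96 to -4.37 (-1.23, SE 0.32, adjusted p = 0.347). Dusp8 had 2.88 in N51 and -0.54 in N78, and the ERK target Etv4 had 0.36 and -1.27.

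Immediate-early and AP-1 genes are the transcripts that kinase pathways switch on within minutes. Of 18 measured, 6 were higher and 8 lower in both pairs (median -0.13). Ier3, a survival gene of this class, had 3.28 and 2.50 without Cxcl12 and 1.22 and 0.97 with it. The groups did not overlap, and the difference was 4.19-fold in N51 and 2.89-fold in N78 (-1.80, SE 0.28, adjusted p = 0.245; chromosome 17, 35959528 to 35959587, mm9). Wild type cells had less Ier3 as well, by 1.85 and 1.69. The AP-1 subunit Jun went from -2.72 to -4.09 and from -0.81 to -2.18 (-1.37, SE 0.36, adjusted p = 0.347). Jund had -1.21 and -0.82. Fosl1, a partner of Jun, lay the other way at 2.26 and 0.98 (1.62, SE 0.58, adjusted p = 0.408). Some members, named here after their values were seen, differed mainly in N78. Egr2 had 0.43 in N51 and 4.13 in N78, Fos 0.29 and 3.26, and Fosb 0.24 and 2.64. In the wild type pairs of slides 1 and 2 Egr2 had 1.60 and 4.62, Fos 1.86 and 2.07, and Fosb -0.59 and 3.34.

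STAT5 carries the growth signal of IL3 and of FLT3/ITD to the genome. Of 12 measured targets 8 were higher in both pairs, 2 lower and 2 split under each of 5 scalings, and the median was 0.36. In wild type cells the median of these targets was -0.09. Myc, the transcription factor of cell growth, had 3.63 and 2.87 without Cxcl12 and 4.65 and 4.20 with it (1.18, SE 0.24, adjusted p = 0.297; chromosome 15, 61821516 to 61821576, mm9). Its groups did not overlap, 2 further probes gave 0.70 and 1.25 and 0.19 and 1.09, and wild type cells had 0.82 and 1.68. Id1, which blocks helix-loop-helix factors such as the E proteins, had 3.31 and 0.38 without Cxcl12 and 4.34 and 1.94 with it (1.3, SE 0.29, adjusted p = 0.297; chromosome 2, 152563046 to 152563105, mm9). N78 cells had lower levels than N51 cells, so the groups overlapped, but each pair was higher with Cxcl12, and a further probe gave 0.96 and 1.5. The wild type pairs lay the other way, at -1.01 and -1.24. The anti-apoptotic gene Bcl2l1 (BCL-XL) had 1.02 and 0.37, and 0.47 and 0.89 in a further probe measured on all 4 arrays. The cyclin Ccnd2 had 0.69 and 0.57, and -0.01 and 0.90, and 0.61 and 0.66, in further probes. The kinase Pim1 had -0.34 on both N51 arrays, and 0.40 without and 0.61 with Cxcl12 in N78, a fitted 0.10 (SE 0.38, adjusted p = 0.963).

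Among the partners and rivals of Myc, the repressor Mxd1 went from 2.37 to 0.95 in N51 and from 0.81 to -0.12 in N78 (-1.18, SE 0.35, adjusted p = 0.366), but a further probe gave -1.1 and 0.33. Mnt, another repressor of the network, was higher, by 0.83 and 0.77. Ribosome biogenesis and nucleolar genes, which Myc drives in many cells, separated the pairs. Their median was 0.70 in N51 and -0.10 in N78, and 20 of 30 had opposite signs. Tsr1, which matures the small ribosomal subunit, went from 1.14 to 2.88 in N51 and from 1.83 to 2.34 in N78 (1.12, SE 0.30, adjusted p = 0.353). The nucleolar GTPase gene Gnl3 had 0.95 and 0.51. Wdr74 had 0.86 and 0.65, in a fit that lacked 1 wild type array for it, where its spot was marked as an outlier.

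Actin and SRF-linked genes respond to the serum response factor (SRF), which binds CArG boxes in promoters. Of 21 measured (of 28 listed), 15 were higher in both pairs, 2 lower and 4 split, with a median of 0.47. All 15 were higher in both wild type pairs too, as were 2151 of the 4533 genes higher in both FLT3/ITD pairs over all genes. The count of 15 was 13 under the least favourable scaling. Acta1, skeletal muscle actin, had -1.70 and -3.29 without Cxcl12 and -0.42 and -0.48 with it, 2.43-fold and 7.05-fold higher (2.05, SE 0.43, adjusted p = 0.297). With normexp the adjusted p of Acta1 was 0.0101, and over 19 settings it ran to 1. Actc1, cardiac actin, went from 0.32 to 1.40 and from 0.38 to 1.87 (1.29, SE 0.22, adjusted p = 0.245). The groups did not overlap for either actin. In wild type cells Actc1 was higher by 2.09 and 2.23 and passed the test there (adjusted p = 0.0425). Cnn2, an actin-binding calponin, had 1.36 and 0.95 (1.15, SE 0.25, adjusted p = 0.297). Tagln had 2.31 in N51 and -0.17 in N78. Actb, the actin of all cells, was named after its values were seen: it had -2.18 in N51 and -0.14 in N78.

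Promoters were read from RefSeq (GRCm38.p6) as the 250 bases before a gene's start, and 18 of the 21 actin and SRF-linked genes had one. A CArG box was found on either strand in 7 of them (38.9%), against 1.6% of the promoters of 27025 genes. The list was drawn up from SRF-linked genes, so a high share was built in and is no result about Cxcl12. The 7 were Acta1, Actc1, Actg1, Cnn2, Filip1l, Srf and Vcl, of which Filip1l alone was lower in both pairs. The promoters of Acta1 (chr8:123894776-123895025, minus strand), Actc1 (chr2:114052876-114053125, minus strand) and Cnn2 (chr10:79988350-79988599, plus strand) are shown because these are the 3 members of the list with the largest differences of one sign, and capitals mark the CArG box, 64, 38 and 47 bases before the start.
Acta1: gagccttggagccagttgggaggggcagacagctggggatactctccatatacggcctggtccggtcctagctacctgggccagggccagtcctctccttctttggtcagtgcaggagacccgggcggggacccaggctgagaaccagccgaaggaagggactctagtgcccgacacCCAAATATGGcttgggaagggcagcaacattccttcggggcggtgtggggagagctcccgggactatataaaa
Actc1: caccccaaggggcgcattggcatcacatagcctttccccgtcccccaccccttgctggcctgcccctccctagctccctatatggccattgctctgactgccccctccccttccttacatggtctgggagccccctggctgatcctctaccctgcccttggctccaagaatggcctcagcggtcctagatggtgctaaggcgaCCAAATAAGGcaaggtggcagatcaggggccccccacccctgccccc
Cnn2: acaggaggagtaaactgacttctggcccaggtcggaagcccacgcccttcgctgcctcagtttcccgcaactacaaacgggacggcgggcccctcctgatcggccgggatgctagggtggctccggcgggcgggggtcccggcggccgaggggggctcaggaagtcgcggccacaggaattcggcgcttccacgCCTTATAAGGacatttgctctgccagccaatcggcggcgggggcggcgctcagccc
Dusp2, the gene with the smallest adjusted p, had no CArG box in its promoter (chr2:127335909-127336158, plus strand), which held an E-box (CACGTG, in capitals), as did 6.9% of all promoters.
Dusp2: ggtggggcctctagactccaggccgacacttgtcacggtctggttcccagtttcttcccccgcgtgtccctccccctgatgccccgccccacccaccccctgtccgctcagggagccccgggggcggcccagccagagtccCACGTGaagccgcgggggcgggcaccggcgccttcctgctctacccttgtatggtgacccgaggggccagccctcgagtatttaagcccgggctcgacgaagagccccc
A match is a description of the sequence, and whether a factor bound there was not measured.

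Cholesterol genes gave the most uniform picture. The pathway builds sterols from acetyl-CoA and is driven by the factor SREBP2. Of 24 measured (of 25 listed), 22 were higher in both pairs and 0 lower, with a median of 0.60 (0.58 in N51 and 0.48 in N78). Scaling left 21 or 22 higher, and 21 were higher in both wild type pairs as well, where the median was 0.64. Over all genes, 2151 of the 4533 higher in both FLT3/ITD pairs were higher in both wild type pairs. At an unadjusted p under 0.05 16 of the 24 were higher, against 6.43% of all genes. Stard4, a sterol carrier, and Tm7sf2, a sterol reductase, had opposite signs in the pairs. Sc5d, a desaturase late in the pathway, went from 2.68 to 3.47 in N51 and from 2.15 to 3.05 in N78 (0.85, SE 0.20, adjusted p = 0.319), and its groups did not overlap. The isomerase Idi1 went from 5.01 to 6.12 and from 3.87 to 4.42 (0.83, SE 0.22, adjusted p = 0.347), its groups overlapped, and a further probe gave 0.48 and 0.39. Srebf2, which encodes SREBP2, had 0.47 and 0.32. Insig1, the sterol sensor that holds SREBP back, had 0.49 and 0.60.

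**Figure D3:**
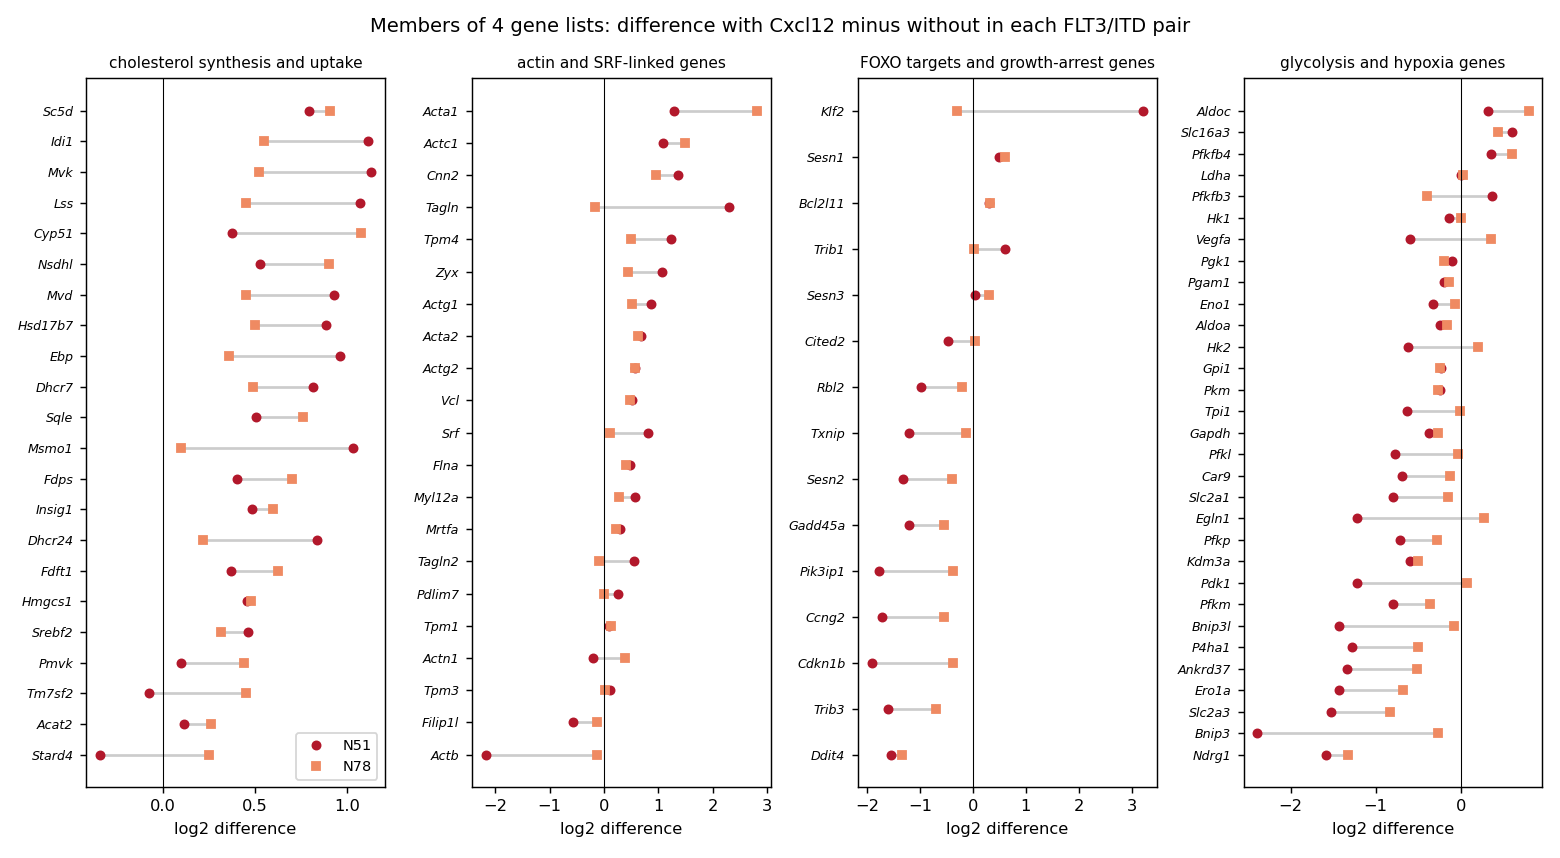
Log2 difference with Cxcl12 minus without (x axis) of measured members of 4 gene lists (rows), for N51 (circles) and N78 (squares), joined by a line. Of the 22 cholesterol genes drawn 20 lie above 0 in both pairs and of the actin and SRF-linked genes 15 of 21, while 9 of 15 FOXO targets and growth-arrest genes and 21 of 31 glycolysis and hypoxia genes lie below 0 in both.

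Glycolysis and hypoxia genes lay the other way. They hold glucose carriers, glycolytic enzymes and other targets of the hypoxia-inducible factor HIF1. Of 31 measured (of 35 listed) 21 were lower in both pairs, 4 higher and 6 split. In all 4 pairs of the series 20 of the 21 were lower, against 1907 of the 3646 lower in both FLT3/ITD pairs over all genes. The median of the list was -0.32, with -0.62 in N51 and -0.15 in N78, and it was -0.67 in wild type cells. The glucose carrier Slc2a3 had 5.94 and 5.27 without Cxcl12 and 4.42 and 4.44 with it (-1.17, SE 0.23, adjusted p = 0.292; chromosome 6, 122678075 to 122678134, mm9). The groups did not overlap, and a further probe gave -0.81 and -1.20. In wild type cells Slc2a3 fell by 1.98 (adjusted p = 0.0425). Ndrg1, a stress-induced growth suppressor, went from 5.99 to 4.40 and from 2.10 to 0.78 (-1.46, SE 0.29, adjusted p = 0.297). Ero1a, which forms disulfide bonds in the endoplasmic reticulum, had -1.43 and -0.68 (adjusted p = 0.297), and P4ha1, a collagen prolyl hydroxylase, -1.28 and -0.51. Bnip3, a mitophagy receptor, had -2.39 in N51 and -0.27 in N78. Among the glycolytic enzymes Pfkm had -0.80 and -0.36 and Gapdh -0.38 and -0.27, and the lactate dehydrogenase Ldha had 0.00 and 0.02. The isozyme Aldoc had 0.32 and 0.80.

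The core of the hypoxia response element, ACGTG on either strand, stood in the promoters of 17 of 28 of these genes that had one (60.7%), against 18.5% of all promoters. The list was drawn up with targets of HIF1 in it, so a high share was built in and is no result about Cxcl12. This motif is contained in the E-box CACGTG. The promoters of Ero1a (chr14:45318573-45318822, minus strand) and of Ankrd37 (chr8:45999851-46000100, minus strand), which differed by -1.34 and -0.51, are shown with the motif in capitals. In Ero1a it lies on the other strand. Ankrd37 was chosen after its values were seen.
Ero1a: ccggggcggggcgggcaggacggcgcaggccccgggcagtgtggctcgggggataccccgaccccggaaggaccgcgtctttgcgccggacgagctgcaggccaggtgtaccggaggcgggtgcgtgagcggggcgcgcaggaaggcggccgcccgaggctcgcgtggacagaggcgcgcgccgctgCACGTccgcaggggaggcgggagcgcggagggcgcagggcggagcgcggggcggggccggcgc
Ankrd37: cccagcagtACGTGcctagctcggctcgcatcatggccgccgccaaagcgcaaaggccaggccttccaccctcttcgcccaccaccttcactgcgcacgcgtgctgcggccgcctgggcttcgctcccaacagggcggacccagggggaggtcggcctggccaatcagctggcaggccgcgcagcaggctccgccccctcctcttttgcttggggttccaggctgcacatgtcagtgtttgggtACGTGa

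FOXO targets and growth-arrest genes are switched on when phosphoinositide 3-kinase and AKT are quiet. Of 15 measured (of 18 listed) 9 were lower in both pairs, 4 higher and 2 split. The 9 were lower in both wild type pairs too, against 1907 of the 3646 lower in both FLT3/ITD pairs over all genes. The median of the list was -0.67, and it was -1.20 in N51 against -0.30 in N78. Ddit4, an inhibitor of mTORC1, had 6.99 and 6.96 without Cxcl12 and 5.45 and 5.61 with it, 2.92-fold and 2.54-fold lower (-1.44, SE 0.32, adjusted p = 0.297; chromosome 10, 59412486 to 59412545, mm9). The groups did not overlap. Ccng2, a cyclin of quiescent cells, had -1.73 and -0.55 (-1.14, SE 0.30, adjusted p = 0.347), Cdkn1b, the cyclin-dependent kinase inhibitor p27, -1.92 and -0.37, and Trib3, a pseudokinase that restrains AKT, -1.61 and -0.70. Klf2, named after its values were seen, had 3.21 in N51 and -0.30 in N78.

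The ATF4 response supplies amino acids under stress. Of 24 measured 13 were lower in both pairs, 1 higher and 10 split (median -0.21). Nupr1, a stress-induced chromatin protein, had 0.30 and -0.51 without Cxcl12 and -2.46 and -2.81 with it, 6.77-fold and 4.92-fold lower (-2.53, SE 0.67, adjusted p = 0.347). The stress factor Ddit3 (CHOP) went from 1.68 to -1.16 and from 0.18 to -1.06 (-2.04, SE 0.61, adjusted p = 0.366). The groups of neither gene overlapped. Atf4 itself had -1.01 and -0.20. The folate enzyme Mthfd2 had -0.88 and -0.65, and the asparagine synthetase Asns 0.25 and -0.59. Of 17 p53 targets, 9 were lower and 3 higher in both pairs. The cyclin-dependent kinase inhibitor Cdkn1a went from 2.85 to 2.38 and from 4.13 to 3.1 (-0.75, SE 0.22, adjusted p = 0.366), and its groups overlapped. The DNA polymerase Polk had -1.0 and -0.93 and Trp53inp1 -1.06 and -0.63.

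Genes of the cell cycle did not move as one. Of 20 G1 cyclins, their kinases and inhibitors, 6 were higher and 8 lower in both pairs. Those higher included the cyclins that start S phase, Ccne1 from 3.25 to 4.80 and from 3.80 to 4.65 (1.20, SE 0.31, adjusted p = 0.347) and Ccne2 from -1.05 to -0.17 and from -3.17 to -1.48 (1.28, SE 0.27, adjusted p = 0.297). Each had a further probe within 0.4 of these differences. The brightest probe of E2f3, which drives S phase genes, had 0.90 and 0.81, but its further probes gave -0.23 and -0.14, and -0.09 and 0.18. The 27 DNA replication genes had a median of 0.43 in N51 and -0.05 in N78, and Rfc3, a clamp loader subunit, had 0.74 in each. The 28 genes of mitosis had a median of 0, with Plk1 at 0.41 and 0.30 and Top2a at -0.87 and -0.36. Birc5 (survivin), a mitotic inhibitor of apoptosis, had 6.10 and 6.52 without and 6.84 and 6.45 with Cxcl12 (0.33, SE 0.22, adjusted p = 0.652). Among 17 genes of the BCL2 and IAP families 6 were higher and 6 lower in both pairs. The death genes Bmf and Bbc3 (PUMA) had -1.85 and -0.78 and -0.78 and -0.44, but a dimmer Bmf probe gave -0.24 and 0.65.

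The receptor Cxcr4 had 2.27 in N51 and 2.05 in N78 without Cxcl12, and 1.0 and 2.02 with it (-0.65, SE 0.40, adjusted p = 0.633; chromosome 1, 130485079 to 130485138, mm9). It was lower in N51 alone, and a further probe gave -1.55 and 0.14. The other Cxcl12 receptor, Ackr3, and Cxcl12 mRNA stayed within background on every array, and the mouse Flt3 probe was above it on only 2 of the 4 arrays. Of 21 genes of G protein signalling and receptor desensitisation, 11 were lower and 4 higher in both pairs (median -0.14). Rgs2, which deactivates G proteins, had -0.48 and -0.56 (-0.52, SE 0.20, adjusted p = 0.445). The G protein subunit Gna13 had -0.68 and -0.36, with further probes at -0.19 and 0.07 and at -1.11 and -0.41. Gnai2, the main Gi subunit of leukocytes, had -0.64 and -0.28. Rock1, a kinase that drives actomyosin contraction, had -0.02 and -0.09 (adjusted p = 0.97), with further probes at -0.46 and 0.02 and at -0.85 and 0.23.

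Granule genes of myeloid cells had some of the largest differences, with large standard errors. Prg2, the major basic protein of eosinophils, had 2.59 and 2.79 without Cxcl12 and 0.00 and -0.82 with it (-3.1, SE 1.1, adjusted p = 0.399). Epx, eosinophil peroxidase, went from -0.95 to -3.02 and from 3.24 to -0.55 (-2.93, SE 1.18, adjusted p = 0.453). The eosinophil ribonuclease gene Rnase2a had -1.84 and -2.83 (-2.33, SE 0.68, adjusted p = 0.366), and Prg3 was at least 8.78-fold lower (adjusted p = 0.366). With normexp the limma adjusted p was 1.21e-08 for Epx, 0.000175 for Prg2 and 0.000688 for Rnase2a. It was under 0.05 in 1, 2 and 1 of 19 settings, so these calls rest on the setting. Prg3 passed in 0 of 18. The wild type pairs were lower as well, for Prg2 by 0.52 and 3.30. Of 14 neutrophil markers 5 were measured and 4 were lower in both pairs, among them the myeloperoxidase gene Mpo at -1.28 and -2.08 and the protease Prtn3 at -1.58 and -0.87. Their summed signal, relative to the 75th percentile, was 6.98 in N51 and 9.6 in N78 without Cxcl12 and 3.79 and 2.48 with it, while the probes of Camp, Elane, Lcn2, Ltf, Mmp8 and S100a8 were below background on all 4 arrays. Of 12 mast cell and basophil markers 7 were lower and 2 higher in both pairs (median -0.63), with Cpa3, a mast cell protease, at -1.93 and -0.94. Their summed signal was 136 on both N51 arrays, and 52.5 without and 46.3 with Cxcl12 in N78. Fewer cells of a type and less RNA per cell cannot be told apart in such samples, and the part of either in the other results was not tested.

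**Figure D4:**
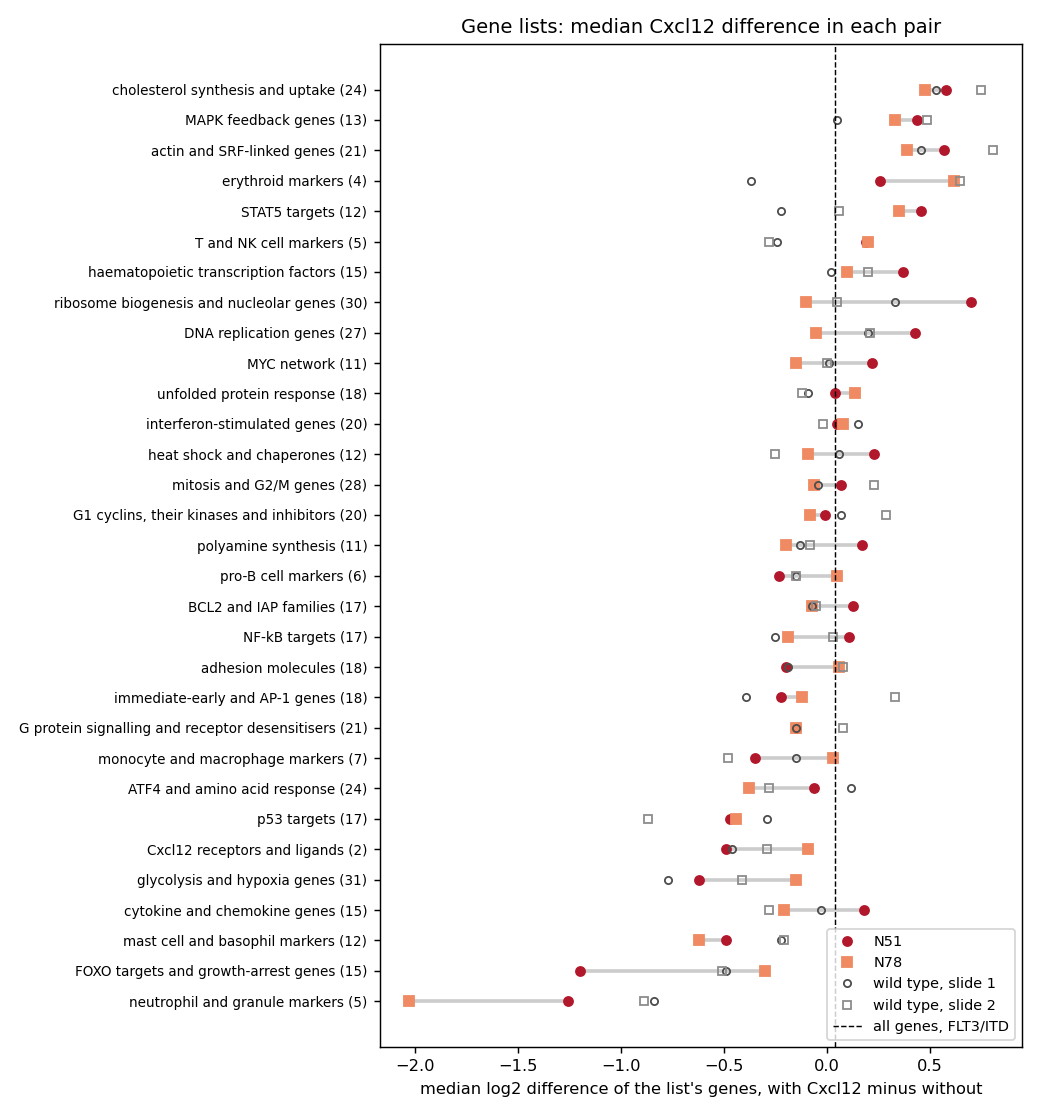
Median log2 difference with Cxcl12 minus without (x axis) of the measured genes of each of 31 lists (rows, number measured in brackets), for N51 and N78 (filled) and the wild type pairs of slides 1 and 2 (open). The dashed line is the median of all genes, 0.04; the cholesterol, MAPK feedback and actin lists lie above it in both FLT3/ITD pairs and the neutrophil, FOXO, glycolysis and p53 lists below it.

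Transcription factors of blood formation differed one by one. Runx1, needed to form blood stem cells, went from -0.01 to -1.18 in N51 and from -0.63 to -1.33 in N78 (-0.94, SE 0.24, adjusted p = 0.347). The groups did not overlap, and a further Runx1 probe gave -0.47 and -0.35. Lyl1, a partner of E proteins, lay the other way, from 5.44 to 6.66 and from 5.24 to 6.01 (0.99, SE 0.23, adjusted p = 0.311). Of 17 NF-kB targets 5 were higher and 6 lower in both pairs. The NF-kB subunit Relb had 1.31 and 0.80 (1.06, SE 0.24, adjusted p = 0.297), and the feedback inhibitor Tnfaip3 (A20) -1.21 and -0.78 (-0.99, SE 0.23, adjusted p = 0.311). Of 20 interferon-stimulated genes 9 were higher and 5 lower, and Oas2, which senses double-stranded RNA, was at least 2.65-fold higher (adjusted p = 0.369). Among cytokines the chemokine Ccl6 was at least 2.75-fold lower (adjusted p = 0.347). The probes of Oas2 and Ccl6 passed the filter only through the FLT3/ITD group in which each was higher. Of 18 adhesion molecules 10 had opposite signs in the pairs. Of 12 heat shock genes 3 were higher and 3 lower in both pairs, with Dnaja1 at 0.98 and 0.35. Of 18 unfolded protein response genes 7 were higher and 4 lower, with the ubiquitin ligase Syvn1 at 0.78 and 0.50. The polyamine enzyme Amd1 had 0.96 and 0.55 and the spermine oxidase Smox -0.92 and -0.91. The Smox probe passed the filter only through the FLT3/ITD group without Cxcl12, so its place here is partly set by it.

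The pairs disagreed past 2-fold for 17 genes. Among these, Slc4a7, a bicarbonate carrier, had 1.83 in N51 and -1.07 in N78 in its brightest probe, with all 4 arrays above background. Its further probes gave -1.48 and 0.04, -0.13 and 0.20, and -1.56 and 0.16, and so did not show this. The forkhead factor Foxk1 had 1.45 and -1.12, but 0.09 and 0.08, and 0.13 and -0.53, in its further probes. The membrane protease St14 had -2.72 and 1.21, and was above background on only 1 array of each FLT3/ITD group. The ribosomal RNA probe Rn28s1 had 5.83 and -1.92, with 3 of the 4 arrays above background. Each pair is 1 array against 1, so these have no test.

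Wild type FLT3 cells gave 9 genes past the test with Cxcl12 (0.065%), Actc1 higher and 8 lower. Of these, Slc2a3, Selenbp1, Selenbp2, Gipr and 5830408C22Rik had fitted differences of -1.11 to -2.57 in FLT3/ITD cells. Fam162a and Rcor2 fell by 1.51 and 1.56 in wild type cells and had -0.19 and -0.25 in FLT3/ITD cells. The test of the difference between the cells, FLT3/ITD minus wild type, called 0 genes (0%), with 236 at an unadjusted p under 0.05, so no gene's response is shown to be particular to either. It had an adjusted p of 1 for Fam162a and Rcor2 (1.33 and 1.31) and for Id1 (2.42). Normexp called 6 genes there, among them Tug1 and Derl2, named after their values were seen, which differed by 6.42 and 8.27 in N51 and by 0.15 and 0.52 in N78. Of the 68 genes 2-fold higher in FLT3/ITD cells 49 were higher in both wild type pairs and 8 lower in both, and of the 81 lower genes 62 were lower in both and 2 higher. Over all genes, 2151 of the 4533 higher in both FLT3/ITD pairs were higher in both wild type pairs. Of the 3646 lower in both, 1907 were lower in both wild type pairs. The 2-fold genes of both cells shared 9 higher (13.2% of those in FLT3/ITD and 20.9% of those in wild type cells) and 19 lower (23.5% and 15.3%). The arrays of the comparisons are different ones, but each N51 or N78 pair shared its slide with a wild type pair. Across genes, the N78 differences correlated at 0.425 with those of the wild type pair of the same slide and at 0.16 with those of the other slide, and the N51 differences at 0.352 and 0.309.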

How the data were processed

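The 8 RNA samples were hybridised singly, in Cy3, to Agilent 4x44K arrays. The deposited intensity values came from Agilent Feature Extraction, which subtracts background, removes trends within an array and puts surrogates for low signals, per the file headers (9.5.1.1 on the N51 slide, 10.7.3.1 on the N78 slide), with no scaling between arrays. Each was taken to log2, and the 75th percentile of its array (937.2 to 1108.8 on the N51 slide, 366.7 to 600.0 on the N78 slide) was subtracted. The number of arrays limits the precision. The authors' deposited normalized tables served as an alternative.

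Control spots and outlier spots were left out and spots of a probe averaged. Of 41174 probes 21121 were tested, those clearly over background in 1 group or more on each of its arrays. The probe with the highest mean stood for its gene, giving 12082 named genes and 1767 unnamed transcripts. Names came from RefSeq accessions for 27198 probes, from symbols for 5590, synonyms for 721 and the files alone for 1374. Probe coordinates are those of the N78 files (mm9).

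All 8 arrays were fitted with limma 3.58.1 (R 4.3.3), with 4 group means and the slide as block, eBayes with a trend, 3 residual degrees of freedom and Benjamini-Hochberg adjustment over all genes. The fit was tested on simulated data. The slide in the headers gave the pairing, and arrays of a slide shared their deviations from the group means (correlations 0.73 to 0.878).

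The genes and the 32 gene lists were chosen with earlier results of these data known. Genes named from the comparison were the 12 higher and 12 lower with the largest smaller-of-2 pair difference among those at least 2-fold different in both pairs. Added to these were up to 3 examples per list, up to 5 genes with opposite signs each way, and 16 fixed genes. The examples of a list were its members with the largest smaller-of-2 pair difference, higher or lower, so both directions were not always sampled. The text gives a selection of these. These list members fall outside the rule and were chosen as examples after their values were seen: Actb, Aldoc, Ankrd37, Asns, Atf4, Bnip3, Cdkn1b, Dusp6, Dusp8, Egr2, Etv4, Fos, Fosb, Gapdh, Gnai2, Insig1, Jund, Klf2, Ldha, Mthfd2, P4ha1, Pfkm, Srebf2, Stard4, Tagln and Tm7sf2. Some genes and 1 list are not reported here. Lists are described by counts and medians, with no test. Alternatives were the background correction, the scaling, the filter, the probe rule, the block, the trend, the arrays in the fit and leaving out each array.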

Additional observations from a re-analysis of the deposited data

Results flagged for a closer look

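Among the reported genes that the naming rule chose, 9 had readings with both FLT3/ITD pairs on one side of 0 and both wild type pairs on the other. The difference itself, FLT3/ITD minus wild type, had a limma adjusted p of 1 for each, so none passed. How common this pattern was over all tested genes was not counted, so the number 9 is no result by itself. It also leaves out genes given outside that rule, such as Gnai2 and Id2, which had such readings too. Id1 differed by 2.42 between the cells, with 1.03 and 1.56 in N51 and N78 and -1.01 and -1.24 in the wild type pairs, all on arrays where it was well above background. For Oprk1 the value was -5.88 (-5.12 and -4.06, against 2.41 and 0.16), for Fabp4 -3.97 (-3.77 and -2.01, against 2.01 and 0.15), and for Msgn1 4.26 (3.43 and 1.64, against -3.00 and -0.43). Oprk1 and Fabp4 were below background on all 4 wild type arrays, so their wild type differences have no measured direction, and Msgn1 was below background in FLT3/ITD cells without Cxcl12 and in wild type cells with it. The values were 2.07 for 2210016F16Rik, below background in FLT3/ITD cells without Cxcl12, 1.08 for Dnajb1, whose further probe gave -0.15 and -0.57 in the FLT3/ITD pairs, 0.78 for Cd4, 0.73 for Syvn1 and 0.42 for Cd3d.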

How the results depend on the processing

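The count of genes called with Cxcl12 in FLT3/ITD cells was 28 with normexp, 3 with the median of each array and with the authors' tables, 5 with only the FLT3/ITD arrays and a replicate block, 1 without the trend, and 0 to 57 leaving out single arrays (57 without the N78 array with Cxcl12, 10 without the N78 array without it). Without the replicate block 0 were called there and in wild type cells, with 122 genes at an unadjusted p under 0.05. In wild type cells the count of 9 became 0 with quantile scaling, no filter, the mean of probes, no block or no trend, and 0 to 13 leaving out single arrays. For the difference between the cells it was 6 with normexp and 0 to 20 leaving out single arrays. The 2-fold genes numbered 16 higher and 19 lower with normexp, 35 and 31 with only probes above background on all arrays (where 6 of the 24 leading genes remained), 791 and 584 in N51 alone, and 147 and 220 in N78 alone. All 24 leading genes had their direction in both pairs under the scalings, filters and probe rule other than that filter. They were picked from these data for large differences in both pairs, so their direction could hardly turn, and this is no support for them. Leaving out single arrays turned the sign of Rock1 (0.01 and 0.05, range from -0.15), Birc5 (-0.04 to 0.71), Cxcr4 (-1.47 to 0.16) and Pim1 (-0.25 and -0.39, range up to 0.6), which had adjusted p from 0.633 to 0.97 in the full fit. Of the other values of single genes, 600 kept their side of the threshold and 24 moved past it, while of the list medians 491 moved by less than the SD of the N51 and N78 medians and 103 by more. Leaving out the N51 array without Cxcl12 moved the median of immediate-early genes to 0.24, and with no filter that of neutrophil markers was 0.06. The causes were not tested.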

Other observations

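Some single arrays held isolated genes far from the other arrays, chosen here after their values were seen. In N51, Tug1 was at -4.14 and Derl2 at -4.59 without Cxcl12, against 2.27 and 3.68 with it, while the N78 levels lay between 1.44 and 4.22. In N78 the array without Cxcl12 had Tsc1 at -7.08, against -0.37 with Cxcl12 and -0.28 and -0.55 in N51. Lars2 went from 0.12 to 6.24 in N51 and from 8.75 to 8.20 in N78. Their wild type differences lay between -0.89 and 0.21. For Klf2 and Dusp8 the N51 array with Cxcl12 stood apart on its slide. Klf2 was at 4.73 there, against 1.52 in N51 without Cxcl12 and 1.46 and 0.97 in wild type cells. Dusp8 was at 4.68, against 1.81, 1.76 and 1.26. On the 4 arrays of the N78 slide, however, Klf2 lay between 4.99 and 5.84 and Dusp8 between 4.93 and 5.98. The N51 array with Cxcl12 had 203 outlier spots, against 93 to 164 on the rest. Id2, a relative of Id1, had 1.03 and 0.34 in the FLT3/ITD pairs and -0.68 and -0.51 in the wild type pairs.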
